A study of Homo sapiens with 12 samples.

Results

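The 31 genes described here encode the enzymes and regulators with which a cell makes cholesterol and fatty acids. They were chosen by name, as the probe sets whose only gene symbol in the platform annotation is that of a member, with the brightest probe set taken where a gene had several. Of the 31, 29 were measured among 18417 genes in all. FDFT1, which makes squalene, was not analysed here. HSD17B7, a sterol ketone reductase, shares a probe set with the pseudogene HSD17B7P2. That probe set read from 7.91 to 8.5 over the arrays and entered no comparison.

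RNA was measured on Affymetrix human gene arrays in MDA-MB-231 1833 cells, a subline of a human breast cancer line known for its spread to bone. The study asks which genes HMGA2, a chromatin protein, TET1, an enzyme that oxidises methylated cytosine in DNA, and HOXA9, a homeobox transcription factor, control in these cells. The 3 control arrays came from cells for which no construct is named. The 3 shHMGA2 arrays came from cells transduced with an shRNA against HMGA2 in the lentiviral vector pLKO.1 and kept in puromycin at 0.5 μg/ml. The Tet1 and HOXA9 cells carried a lentiviral Flag-Tet1 or HOXA9 under a tetracycline-inducible promoter and a Tet-On regulator named after the CMV promoter. They were selected with puromycin at 0.5 μg/ml and G418 at 500 μg/ml. All cells grew in DMEM with 10% serum, which was tetracycline-approved serum for the Tet1 and HOXA9 cells. Whether the inducer was added, for how long, and whether a line was 1 clone or a pool are not given in the sources used here. For Tet1 and HOXA9 cells the source name says 1834, whereas the title says 1833. Replicate 3 of either group was the mean of replicates 1 and 2, so each of these groups has 2 arrays.

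Cells make sterols from acetyl-CoA. The mevalonate steps lead from acetyl-CoA to farnesyl pyrophosphate, and the sterol steps lead from squalene through lanosterol to cholesterol. Fatty acid synthesis starts from the same acetyl-CoA, which ACLY supplies from citrate, and ends in elongation and desaturation. Both pathways are driven by the SREBP transcription factors, made from SREBF1 and SREBF2. When membrane sterol is low, SCAP escorts an SREBP from the endoplasmic reticulum to the Golgi, where proteases release its active part, and when sterol is high the INSIG proteins hold SCAP back. Many enzymes of both pathways, and INSIG1 itself, are SREBP targets, so they tend to move together in a cell, and many tumour cells express them highly.

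The arrays fell into 2 sets, with correlations over all probe sets of 0.986 to 0.998 within control and shHMGA2, 0.993 to 0.997 within Tet1 and HOXA9, and 0.945 to 0.966 between the sets. Array set, source-name subline, serum, transduction, puromycin and G418 selection and construct cannot be told apart in any comparison of Tet1 or HOXA9 with control. Between shHMGA2 and control, transduction, puromycin and the shRNA cannot be told apart either, since no construct or drug is named for control. The probe set shared by ELAC2 and HMGA2 read 9.56 ± 0.09 (SD, n = 3) in control and 8.81 ± 0.29 (SD, n = 3) in shHMGA2. TET1 read 7.07 ± 0.13 (SD, n = 2) in the arrays labelled Tet1 and 7.3 ± 0.14 (SD, n = 2) in those labelled HOXA9, a difference of -0.23 (limma adjusted p = 0.69), so its probe set did not set the Tet1 label apart, and Tet1 below means the arrays so labelled. TET1 was highest in shHMGA2, at 8.97 ± 0.29 (SD, n = 3) against 6.56 ± 0.11 (SD, n = 3) in control, a difference of 2.41 (limma adjusted p = 1.3e-07). Of 8 measured mesenchymal markers of MDA-MB-231, VIM, CD44, CAV1 and MSN had group means from 12.42 to 13.53, while SPARC read 6.04 in control. Of 8 luminal markers, CDH1 stayed below 6.26 and KRT8 read 11.52 to 12.12. Under 6.26 lie 30 percent of the table's probe sets, and a level there is not known to exceed background. In shHMGA2, 5 of 8 MDA-MB-231 markers were called lower, CD44 among them (-0.25), and 3 of 8 luminal markers were lower, SPDEF among them (-1.24). In the same arrays 5 of 9 markers of the kidney line HEK293 were called higher and 0 lower, where 13.6% of all genes were higher and 12.6% lower. Their summed level was 11.36 to 11.74 there and 9.96 to 10.08 in control, with 2 and 4 of the 9 group means under 6.26. CDKN2A and MTAP, genes of a chromosome 9 stretch deleted in MDA-MB-231, were 2.48 and 1.72 higher in shHMGA2. The part of these differences in the results below was not tested.

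Every measured member had group means above 6.26, from 7.5 for PMVK in control to 11.65 for FADS1 in control. All values are log2 RMA values, on which a difference of 1 is a doubling, and levels of different genes are not compared, since probes differ in brightness. In RNA from whole cultures, fewer expressing cells and less RNA per cell cannot be told apart. In the plot of levels, 4 of 29 members had shHMGA2 and control arrays that did not overlap (3 higher, 1 lower; 18.8% and 21.7% of all genes). Between Tet1 and control 6 were apart higher and 10 lower (58.5% and 27.2% of all genes), and between HOXA9 and control 9 and 4 (57.8% and 25.1%).

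**Figure D1:**
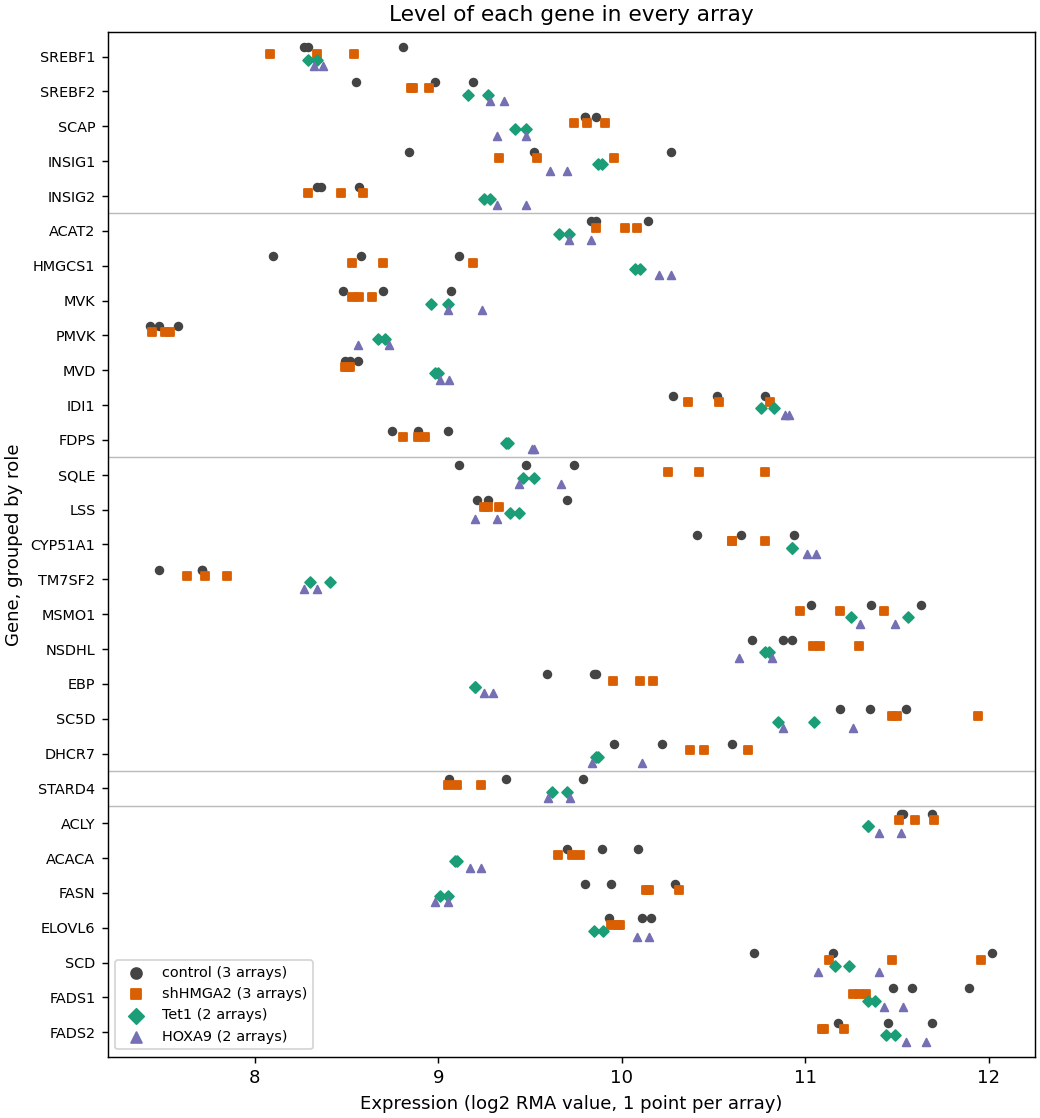
Level of each of the 29 measured genes in the 10 arrays (x axis, log2 RMA value; 1 point per array; rows grouped by role, from sterol sensing at the top through mevalonate steps, sterol steps and sterol transfer to fatty acid synthesis). The shHMGA2 points of SQLE lie at 10.25 to 10.78, right of the control points at 9.11 to 9.74, and the control points of INSIG1 and SCD are spread over more than 1 log2 unit.

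The first feature of these genes was how far apart the replicate arrays of the same group were. INSIG1, the sterol-responsive brake on SREBP release, read 9.52, 8.84 and 10.27 in control arrays 1 to 3, and 9.33, 9.54 and 9.96 in shHMGA2 arrays 1 to 3. SCD, the desaturase that makes oleate, read 11.15, 10.72 and 12.02 in control and 11.13, 11.47 and 11.96 in shHMGA2. HMGCS1, which makes HMG-CoA, read 8.58, 8.1 and 9.11 in control and 8.53, 8.7 and 9.19 in shHMGA2. In all 3 genes control array 2 was the lowest and control array 3 the highest of the control arrays, and shHMGA2 array 3 was the highest of its group. STARD4, which carries cholesterol between membranes, read 9.37, 9.06 and 9.79 in control but only 9.05, 9.1 and 9.23 in shHMGA2. The regulator SREBF2 read 8.98, 8.55 and 9.19 in control and 8.86, 8.85 and 8.95 in shHMGA2. For these 2 genes the control arrays were spread more widely than the shHMGA2 arrays.

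The same order of the control arrays ran through the members. Control array 3 was the highest of the 3 in 27 of 29 members, EBP and PMVK being the exceptions, against 35.7% of all genes. Control array 2 was the lowest in 25 of 29, against 30.8% of all genes. The range over the control arrays had a median of 0.49 over the members and 0.14 over all genes. It was above 0.5 in 12 members (41.4%), against 2.29% of all genes, and 16 members (55.2%) were among the 5% of genes with the widest range. In the shHMGA2 arrays 8 members (27.6%) were among the widest 5%, in HOXA9 2 and in Tet1 1. Array 3 of shHMGA2 was the highest in 23 of 29 members, against 39.3% of all genes. The pattern was noticed in these data and is given as a description, without a test.

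Control array 3 minus control array 2 had a median of 0.49 over the members, with 28 of 29 above 0, and of 0 over all genes, with 50.4% above 0. By this difference INSIG1 (1.43) ranked 3, SCD (1.3) ranked 5 and HMGCS1 (1.01) ranked 7 of 18417 genes, and 9 members were among the top 100. Every role took part, with medians of 0.54 for sterol sensing, 0.31 for the mevalonate steps, 0.49 for the sterol steps and 0.41 for fatty acid synthesis. PMVK, at -0.1, was the member below 0. Of the neighbouring gene lists, the other SREBP targets had a median of 0.2 (12 of 14 above 0), genes of LXR and sterol export 0.23 (6 of 7) and lipid uptake and storage 0.14 (12 of 14). Isoprenoid branches and late sterol genes were at 0.08, fatty acid elongation, desaturation and activation at 0.04, fatty acid oxidation at 0.03, and the proteins of SREBP processing and turnover at 0. Among the cell markers, the MDA-MB-231 list was at 0, the luminal list at -0.01, the adipocyte and hepatocyte list at -0.04 and the HEK293 list at -0.14. Over all genes the medians of control arrays 2 and 3 were 7.83 and 7.84. Array 3 minus array 1 of shHMGA2 had a median of 0.16 over the members, with 25 of 29 above 0, and of 0.01 over all genes.

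**Figure D2:**
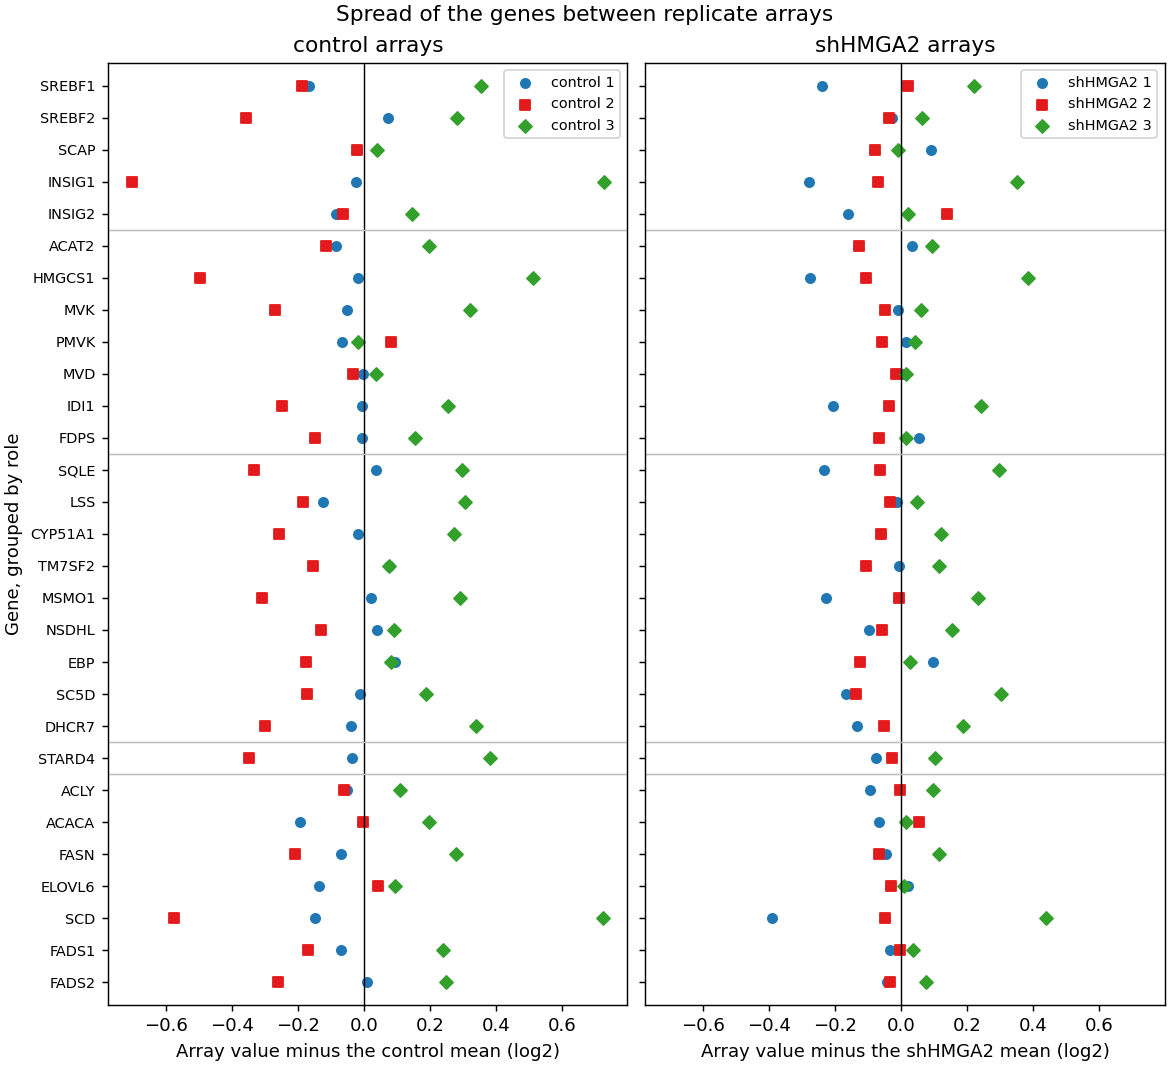
Each array's value minus its group's mean (x axis, log2) for the 29 genes, in the control arrays (left) and the shHMGA2 arrays (right), with 1 symbol per replicate. Control 3 lies right of the other control arrays in 27 of 29 genes and control 2 left of them in 25, and shHMGA2 3 lies furthest right in 23.

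The promoters of the members are shown next for what they hold in common. RefSeq promoters (GRCh38.p14) were found for 27 of the 31 members, and the 250 bases before each start site were searched on both strands for 4 motifs. The NF-Y box CCAAT, bound by a factor that works beside SREBPs, was in at least 1 window of 19 of 27 members (70.4%) and of 40.4% of the 14238 tested genes with a promoter. The GC box GGGCGG of Sp1 was in 26 of 27 (96.3%), against 63.7%. The E-box CACGTG was in 3 (11.1%), against 9.8%, and the strict sterol regulatory element TCACNCCAC in 1, SREBF2, against 1.19%. The CCAAT and GC box shares depend on base composition and on the number of start sites listed per gene, and a match is letters, not a bound site. Of the members with an entry, CYP51A1, PMVK, INSIG2, SREBF1, SCAP, ELOVL6, FADS1 and FADS2 had no CCAAT in these windows. Their differences of control array 3 minus control array 2 ran from -0.1 for PMVK to 0.54 for SREBF1. Among the measured members with CCAAT, the difference ran from 0.07 for MVD, with 3 boxes, to 1.43 for INSIG1, with 1. Whether the motifs have a part in the order of the arrays was not tested.

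The promoters below are those of the 3 members with the widest control spread and of SREBF2 for its sterol regulatory element. NSDHL is added for its row of CCAAT boxes, and PMVK as the member whose difference between control arrays 3 and 2 was below 0. They run 5′ to 3′ along the gene and end at the base before the first listed start site, with the matches to the 4 motifs in capitals. INSIG1 is at chr7:155297628-155297877 (plus strand), with 1 NF-Y box, 5 GC boxes, of which a pair overlaps, and 1 E-box. SCD is at chr10:100346983-100347232 (plus strand), with 2 NF-Y boxes and 2 GC boxes. HMGCS1 is at chr5:43313413-43313662 (minus strand), with 2 of each. SREBF2 is at chr22:41832855-41833104 (plus strand), with the sterol element, 1 NF-Y box and 2 GC boxes. NSDHL is at chrX:152830813-152831062 (plus strand), with 5 NF-Y boxes, of which a pair overlaps on opposite strands. PMVK is at chr1:154936720-154936969 (minus strand), with 1 GC box alone.
INSIG1: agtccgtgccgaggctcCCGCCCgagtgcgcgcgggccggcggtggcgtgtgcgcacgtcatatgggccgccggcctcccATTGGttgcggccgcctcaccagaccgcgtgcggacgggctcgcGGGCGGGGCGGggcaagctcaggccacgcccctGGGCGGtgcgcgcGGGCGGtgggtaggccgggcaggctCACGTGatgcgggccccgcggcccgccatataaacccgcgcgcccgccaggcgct
SCD: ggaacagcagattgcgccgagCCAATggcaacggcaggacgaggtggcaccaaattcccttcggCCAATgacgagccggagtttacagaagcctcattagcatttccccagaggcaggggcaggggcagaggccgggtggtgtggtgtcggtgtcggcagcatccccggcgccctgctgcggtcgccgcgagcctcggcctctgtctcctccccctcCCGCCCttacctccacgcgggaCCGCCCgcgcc
HMGCS1: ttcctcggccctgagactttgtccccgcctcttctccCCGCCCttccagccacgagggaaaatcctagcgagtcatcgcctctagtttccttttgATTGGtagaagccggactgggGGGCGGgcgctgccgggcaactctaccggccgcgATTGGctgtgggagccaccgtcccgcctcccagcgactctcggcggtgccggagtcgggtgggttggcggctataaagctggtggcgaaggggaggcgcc
SREBF2: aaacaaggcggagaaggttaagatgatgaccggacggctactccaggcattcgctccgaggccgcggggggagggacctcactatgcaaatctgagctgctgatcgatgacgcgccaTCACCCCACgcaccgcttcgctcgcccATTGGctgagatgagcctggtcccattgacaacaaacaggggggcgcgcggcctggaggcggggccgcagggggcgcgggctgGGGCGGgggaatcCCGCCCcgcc
NSDHL: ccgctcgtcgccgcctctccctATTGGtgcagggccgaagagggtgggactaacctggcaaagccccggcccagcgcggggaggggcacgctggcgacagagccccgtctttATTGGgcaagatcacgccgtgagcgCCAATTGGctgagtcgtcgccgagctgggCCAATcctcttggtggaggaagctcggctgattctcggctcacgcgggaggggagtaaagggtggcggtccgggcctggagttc
PMVK: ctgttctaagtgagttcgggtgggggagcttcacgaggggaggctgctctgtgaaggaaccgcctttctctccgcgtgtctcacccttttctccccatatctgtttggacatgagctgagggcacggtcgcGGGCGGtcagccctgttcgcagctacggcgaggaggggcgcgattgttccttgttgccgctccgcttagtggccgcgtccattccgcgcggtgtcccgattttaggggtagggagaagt

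**Figure D3:**
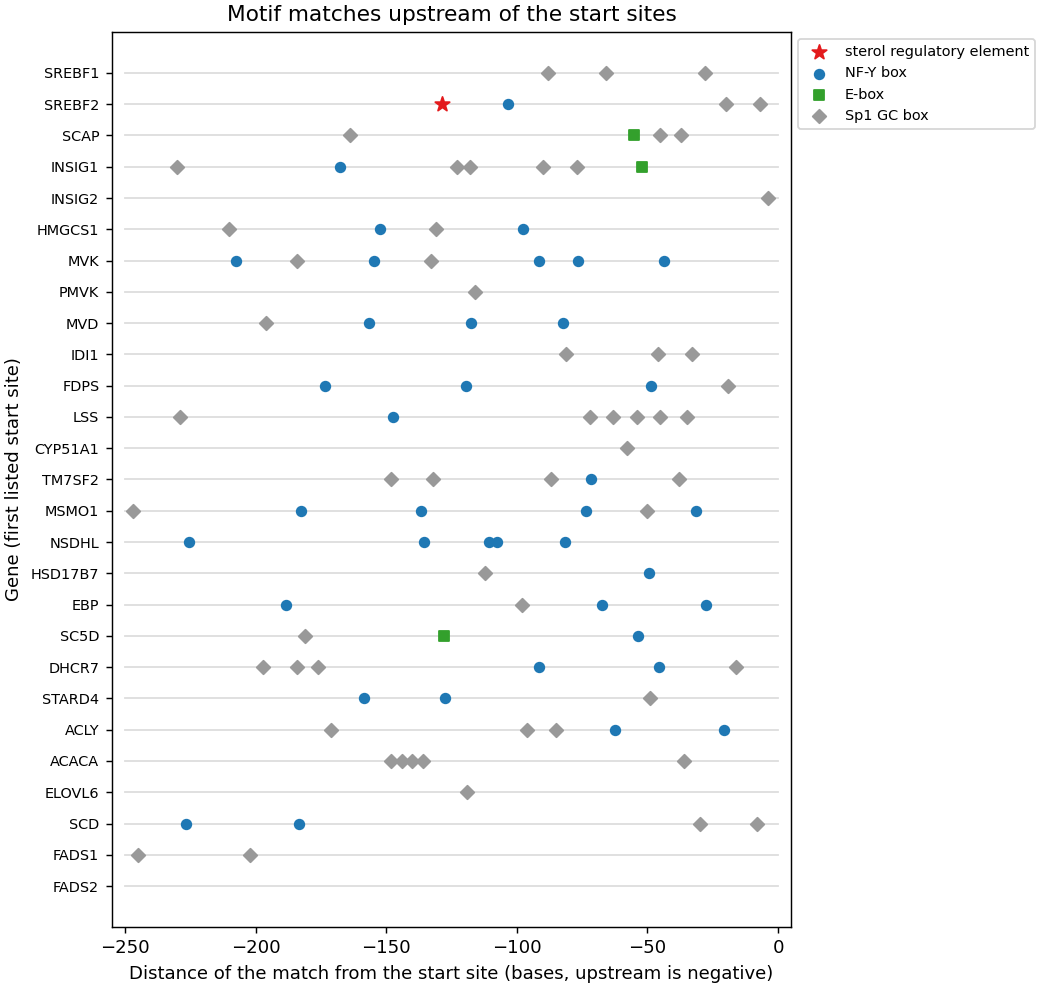
Positions of motif matches in the 250 bases before the first listed start site of the 27 genes with a RefSeq promoter (x axis, bases from the start site; 1 row per gene). NF-Y boxes recur across the mevalonate and sterol step genes, and the sterol regulatory element appears in the SREBF2 row alone; matches in further start sites, which the counts include, are not drawn.

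Against control, 3 enzymes of the sterol steps were called higher in shHMGA2 and both fatty acid desaturases of the polyunsaturated branch lower. This was a smaller share of the members than of all genes. The calls of NSDHL, EBP and FADS2 depended on single arrays, as given below. The regulators and the mevalonate steps had no called member. SQLE, which epoxidises squalene, was 2.05-fold higher, and NSDHL and EBP, which act later on the sterol ring, were 1.23-fold and 1.24-fold higher. FADS1 and FADS2 were 1.28-fold and 1.24-fold lower. In all, 5 of 29 members were called (17.2%), 3 higher and 2 lower, against 26.2% of all genes, of which 13.6% were higher and 12.6% lower. A gene was called at an adjusted p under 0.05 in limma's fit of the 10 arrays, with Benjamini-Hochberg adjustment over 18417 genes. The labels call the arrays biological replicates without saying how they were separated, so these p-values measure the spread between these arrays.

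SQLE read 9.48, 9.11 and 9.74 in control and 10.25, 10.42 and 10.78 in shHMGA2. The 2 groups did not overlap, and the difference of 1.04 ± 0.15 (SE; 95% confidence interval 0.7 to 1.37; adjusted p = 0.00045) was several times its error. In Tet1 (9.46 and 9.52) and HOXA9 (9.44 and 9.67) SQLE lay within the control range. NSDHL, which removes a carbon from the sterol ring, read 10.88, 10.71 and 10.93 in control and 11.04, 11.08 and 11.29 in shHMGA2, a difference of 0.3 ± 0.08 (SE; adjusted p = 0.018). EBP, the sterol isomerase, read 9.86, 9.59 and 9.85 in control and 10.17, 9.95 and 10.1 in shHMGA2, a difference of 0.31 ± 0.08 (SE; adjusted p = 0.016). The groups of NSDHL and EBP did not overlap either, but their nearest arrays were close. Without control array 2, the array lowest in most members, NSDHL (0.23, adjusted p = 0.073) and EBP (0.22, adjusted p = 0.056) were no longer called, which left SQLE as the only member called higher. NSDHL also lost its call without shHMGA2 array 3 (adjusted p = 0.074) and EBP without shHMGA2 array 1 (adjusted p = 0.057). SQLE kept its call without any of the 10 arrays.

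FADS1, the delta-5 desaturase, read 11.58, 11.48 and 11.89 in control and 11.26, 11.29 and 11.33 in shHMGA2. All 3 shHMGA2 arrays were below all control arrays, with a difference of -0.35 ± 0.09 (SE; adjusted p = 0.012). FADS2, the delta-6 desaturase, read 11.45, 11.18 and 11.69 in control and 11.09, 11.1 and 11.21 in shHMGA2. Here the groups overlapped, and the difference of -0.3 ± 0.1 (SE; adjusted p = 0.049) was no longer called after quantile normalization (adjusted p = 0.051), in a fit of control and shHMGA2 alone (adjusted p = 0.097), or in 9 of the 10 fits that left out 1 array, for example without control array 3 (-0.18, adjusted p = 0.17). Leaving out control array 2 kept it. Without control array 3, 5 members were called higher, DHCR7 among them at 0.41 (adjusted p = 0.025), and 1 lower. SCD, the other desaturase, differed by 0.23 with a 95% confidence interval of -0.37 to 0.83.

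The members with the widest control spread had intervals that leave room for sizeable differences. INSIG1 differed between shHMGA2 and control by 0.07 with an interval of -0.52 to 0.66, and HMGCS1 by 0.21 with an interval of -0.26 to 0.67. The regulators were better bounded where arrays lay close. SCAP, the escort of the SREBPs, differed by 0 (interval -0.14 to 0.14), and INSIG2, the second INSIG protein, by 0.02 (-0.17 to 0.21). SREBF1 differed by -0.14 (-0.44 to 0.17) and SREBF2 by -0.02 (-0.29 to 0.25). By role, the median difference was 0 for sterol sensing and for the mevalonate steps, 0.24 for the sterol steps and -0.09 for fatty acid synthesis. The median over all members was 0, against -0.03 over all genes.

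**Figure D4:**
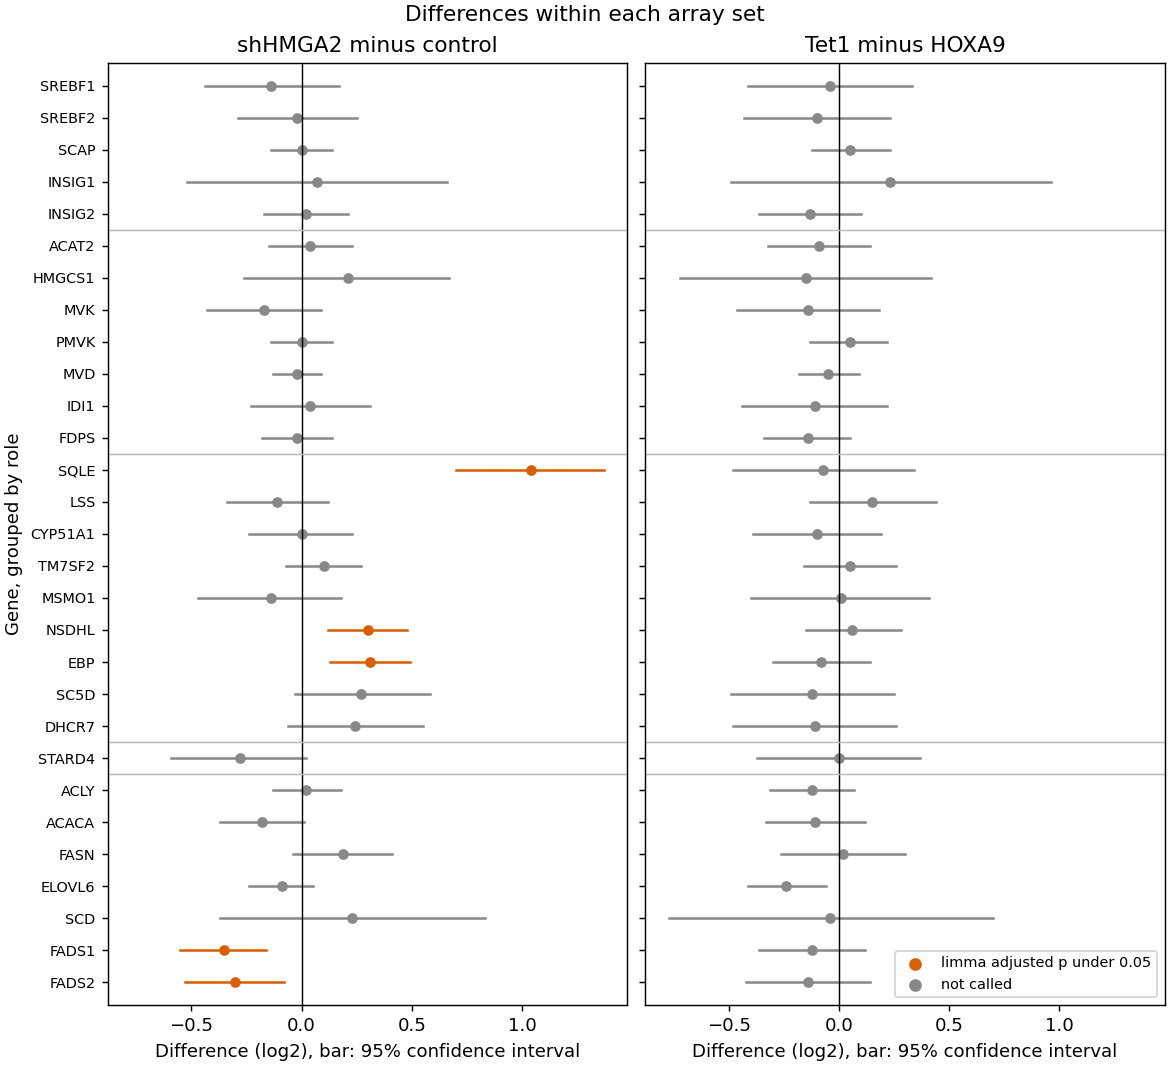
Difference of each gene (x axis, log2; point, limma estimate; bar, 95% confidence interval) between shHMGA2 and control (left) and between Tet1 and HOXA9 (right). SQLE stands apart at 1.04 on the left, with NSDHL and EBP higher and FADS1 and FADS2 lower, and no gene is called on the right.

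Tet1 and HOXA9 arrays, the other comparison within an array set, gave no call among the members: 0 of 29 passed limma's test, against 0.434% of all genes, and 1 member, ELOVL6, had an unadjusted p under 0.05 (3.45%, against 9.16% of all genes). ELOVL6, which lengthens palmitate, read 9.85 and 9.9 in Tet1 and 10.08 and 10.15 in HOXA9. The difference was -0.24 (limma adjusted p = 0.34, unadjusted p = 0.013). With 2 arrays a group, 14 members did not overlap on the lower side and 2 on the higher side, beside 20.5% and 20.8% of all genes. The 95% confidence interval of the difference lay within 0.5 on both sides of 0 for 26 of 29 members. It reached -0.77 for SCD and 0.96 for INSIG1. The fit takes 1 spread per gene from all 4 groups, so the spread of the control and shHMGA2 arrays enters these intervals and p-values. For INSIG1 the SD was 0.72 in control, 0.32 in shHMGA2, 0.01 in Tet1 and 0.06 in HOXA9. INSIG1 read 9.89 and 9.87 in Tet1 and 9.7 and 9.61 in HOXA9, so its 2 groups stood apart by less than the control arrays did among themselves.

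Compared with control, the Tet1 and HOXA9 arrays had higher levels of HMGCS1, PMVK, INSIG2 and TM7SF2 and lower levels of FASN, ACACA, EBP and SCAP. HMGCS1, one of the mevalonate genes, was 2.81-fold higher in Tet1 and 3.11-fold higher in HOXA9, and FASN, fatty acid synthase, was 1.97-fold and 2-fold lower. In Tet1, 6 members were called higher and 10 lower, where 53.9% of all genes were called higher and 23.2% lower. In HOXA9, 10 were called higher and 4 lower, where 54% of all genes were called higher and 21.6% lower. With most genes called, and with the array set confounded with the groups, a call is read against these shares: 55.2% of members were called in Tet1, beside 77.1% of all genes. The 2 comparisons share their control arrays, so their values are set side by side and not counted as support for each other.

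Scaling moved the split. The median gene was 0.25 higher in Tet1 than in control as deposited, 0 after 1 quantile normalization of all arrays and -0.22 with equal array medians. For HOXA9 these values were 0.24, -0.02 and -0.21. The medians made equal were those over all probe sets, at 7.21 to 7.23 in control and 7.66 to 7.71 in Tet1 and HOXA9. Medians over the tested genes lay closer, at 7.83 to 7.86 and 8.14 to 8.16. This scaling therefore set the median gene of Tet1 and HOXA9 below control. The members' median was 0.02 in Tet1 and 0.06 in HOXA9 as deposited, and -0.44 and -0.4 with equal medians. Counts of members higher and lower became 8 and 6 in Tet1 and 10 and 5 in HOXA9 with quantile normalization, and 4 and 16 in Tet1 and 4 and 15 in HOXA9 with equal medians. Over all genes, the shares higher and lower in Tet1 became 32.6% and 33.3%, then 21.9% and 51.4%. For HOXA9 they became 29.7% and 34%, then 20.3% and 51.1%. INSIG2, HMGCS1, PMVK and TM7SF2 were called higher, and SCAP, EBP, ACACA and FASN lower, in both groups under all 3 scalings.

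Among the sterol sensors, INSIG2 was the one called higher in both groups and SCAP the one called lower. INSIG2 read 8.34, 8.36 and 8.57 in control, 9.25 and 9.28 in Tet1, and 9.32 and 9.48 in HOXA9. Both groups lay above every control array. Their means were above the control mean by 0.84 ± 0.1 (SE; adjusted p = 8.4e-06) and 0.97 ± 0.1 (SE; adjusted p = 3.1e-06), and by 0.38 and 0.52 with equal array medians. SCAP read 9.8, 9.8 and 9.86 in control, 9.48 and 9.42 in Tet1, and 9.32 and 9.48 in HOXA9. It was lower by -0.37 ± 0.07 (SE; adjusted p = 0.00054) and -0.42 ± 0.07 (SE; adjusted p = 2e-04), and by -0.83 and -0.88 with equal medians. INSIG1, so variable among the control arrays, lay inside their range in all 4 arrays. SREBF2 was called higher in HOXA9 alone, at 0.41, and turned to -0.05 with equal medians. It lost its call with 1 HOXA9 array left, at 0.45 without array 1 and 0.37 without array 2. Between Tet1 and HOXA9 it was not called. SREBF1, the source of the SREBP that mainly drives fatty acid genes, differed by -0.15 in Tet1 and -0.11 in HOXA9 as deposited, not called. After quantile normalization it was called lower in both, at -0.39 (adjusted p = 0.027) and -0.35 (adjusted p = 0.043).

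Of the 7 mevalonate genes, 4 (57.1%) were called higher in Tet1, near the 53.9% of all genes, and 6 (85.7%) in HOXA9, beside 54%. Their median difference was 0.47 and 0.51 as deposited, and 0 and 0.06 with equal medians. ACAT2, the thiolase at their start, was called lower in Tet1 (-0.26), but not after quantile normalization (adjusted p = 0.086) or without control array 3, Tet1 array 1 or Tet1 array 2. HMGCS1 read 10.1 and 10.07 in Tet1 and 10.2 and 10.27 in HOXA9, above the highest control array at 9.11. Its differences were 1.49 ± 0.24 (SE; adjusted p = 0.00011) and 1.64 ± 0.24 (SE; adjusted p = 5.6e-05), and 1.02 and 1.18 with equal medians. PMVK, phosphomevalonate kinase, read 7.43, 7.58 and 7.48 in control, 8.67 and 8.71 in Tet1, and 8.73 and 8.56 in HOXA9. Its control arrays were close together, and it was 1.19 ± 0.07 (SE; adjusted p = 7.1e-08) and 1.15 ± 0.07 (SE; adjusted p = 1.1e-07) higher, or 0.73 and 0.69 with equal medians. MVD, the decarboxylase that follows it, read 8.52, 8.49 and 8.56 in control, 9 and 8.98 in Tet1, and 9.06 and 9.01 in HOXA9. Differences of 0.47 ± 0.06 (SE; adjusted p = 1.2e-05) and 0.51 ± 0.06 (SE; adjusted p = 6.7e-06) fell to 0 and 0.06 with equal medians and were then not called. FDPS, which makes farnesyl pyrophosphate, read 8.89, 8.75 and 9.05 in control, 9.37 and 9.38 in Tet1, and 9.51 and 9.52 in HOXA9. It was 0.48 ± 0.08 (SE; adjusted p = 0.00018) and 0.62 ± 0.08 (SE; adjusted p = 2.5e-05) higher, and 0.01 and 0.16, not called, with equal medians. With equal medians, HMGCS1 and PMVK were the mevalonate genes still called higher. MVK (0.4) and IDI1 (0.37) were called higher in HOXA9 and not in Tet1, and neither was called between Tet1 and HOXA9. In HOXA9 neither kept its call without control array 2 or HOXA9 array 2.

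The 9 sterol step genes went in different directions. TM7SF2, a sterol reductase, read 7.71, 7.48 and 7.71 in control, 8.41 and 8.3 in Tet1, and 8.34 and 8.27 in HOXA9. It was higher by 0.72 ± 0.09 (SE; adjusted p = 1.2e-05) and 0.67 ± 0.09 (SE; adjusted p = 2.5e-05), and by 0.26 and 0.21 with equal medians. EBP, which was higher in shHMGA2, was lower here, at 9.2 and 9.2 in Tet1 and 9.25 and 9.3 in HOXA9 against a lowest control array of 9.59. Its differences were -0.57 ± 0.09 (SE; adjusted p = 0.00012) and -0.49 ± 0.09 (SE; adjusted p = 0.00042), and -1.03 and -0.94 with equal medians. SC5D, the sterol desaturase, read 11.35, 11.19 and 11.55 in control and 10.85 and 11.05 in Tet1, lower by -0.41 ± 0.16 (SE; adjusted p = 0.029). DHCR7, which makes cholesterol from its precursor 7-dehydrocholesterol, read 10.22, 9.96 and 10.6 in control and 9.86 and 9.87 in Tet1, lower by -0.39 ± 0.16 (SE; adjusted p = 0.035). Both lost their call with quantile normalization (adjusted p = 0.08 and 0.087) and without control array 3 (adjusted p = 0.096 and 0.12). In HOXA9 they were at -0.29 and -0.28 and not called, and neither was called between Tet1 and HOXA9. SQLE, LSS, MSMO1 and NSDHL were called in neither group as deposited, and CYP51A1 was called higher in HOXA9 (0.37), but not without control array 2, HOXA9 array 1 or HOXA9 array 2.

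In fatty acid synthesis no member was called higher in Tet1 or HOXA9, and 5 of 7 (71.4%) were lower in Tet1 and 2 of 7 (28.6%) in HOXA9, beside 23.2% and 21.6% of all genes. The lower counts became 3 (42.9%) and 2 (28.6%) after quantile normalization, beside 33.3% and 34% of all genes. With equal medians they became 6 and 6 (85.7% in each), beside 51.4% and 51.1%. FASN read 9.94, 9.8 and 10.29 in control, 9.05 and 9.01 in Tet1, and 8.98 and 9.05 in HOXA9. All 4 arrays were below the lowest control array. The group means differed from the control mean by -0.98 ± 0.12 (SE; adjusted p = 1.1e-05) and -1 ± 0.12 (SE; adjusted p = 1e-05). ACACA, acetyl-CoA carboxylase, read 9.7, 9.89 and 10.09 in control, 9.1 and 9.09 in Tet1, and 9.17 and 9.23 in HOXA9. It was lower by -0.8 ± 0.1 (SE; adjusted p = 1e-05) and -0.7 ± 0.1 (SE; adjusted p = 3.6e-05). With quantile normalization FASN was at -0.98 and -1.02 and ACACA at -0.79 and -0.71, and with equal medians FASN was at -1.45 and -1.45 and ACACA at -1.27 and -1.15. ACLY (-0.24), FADS1 (-0.29) and ELOVL6 (-0.19) were called lower in Tet1 and not in HOXA9, and none was called between Tet1 and HOXA9. With 1 Tet1 array left each of the 3 lost its call, while the differences stayed near these values. They were -0.24, -0.31 and -0.17 without array 1, and -0.25, -0.27 and -0.21 without array 2. FADS1 and ELOVL6 also lost it after quantile normalization (adjusted p = 0.054 and 0.21). Without control array 3, ACLY (-0.19, limma adjusted p = 0.051) and ELOVL6 (-0.14, limma adjusted p = 0.11) lost it with smaller differences. ELOVL6 lost it without control array 2 as well (-0.17, limma adjusted p = 0.092). FADS1 was called lower in shHMGA2 too (-0.35). SCD differed by -0.09 in Tet1 and -0.06 in HOXA9, with intervals of -0.76 to 0.58 and -0.73 to 0.61.

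**Figure D5:**
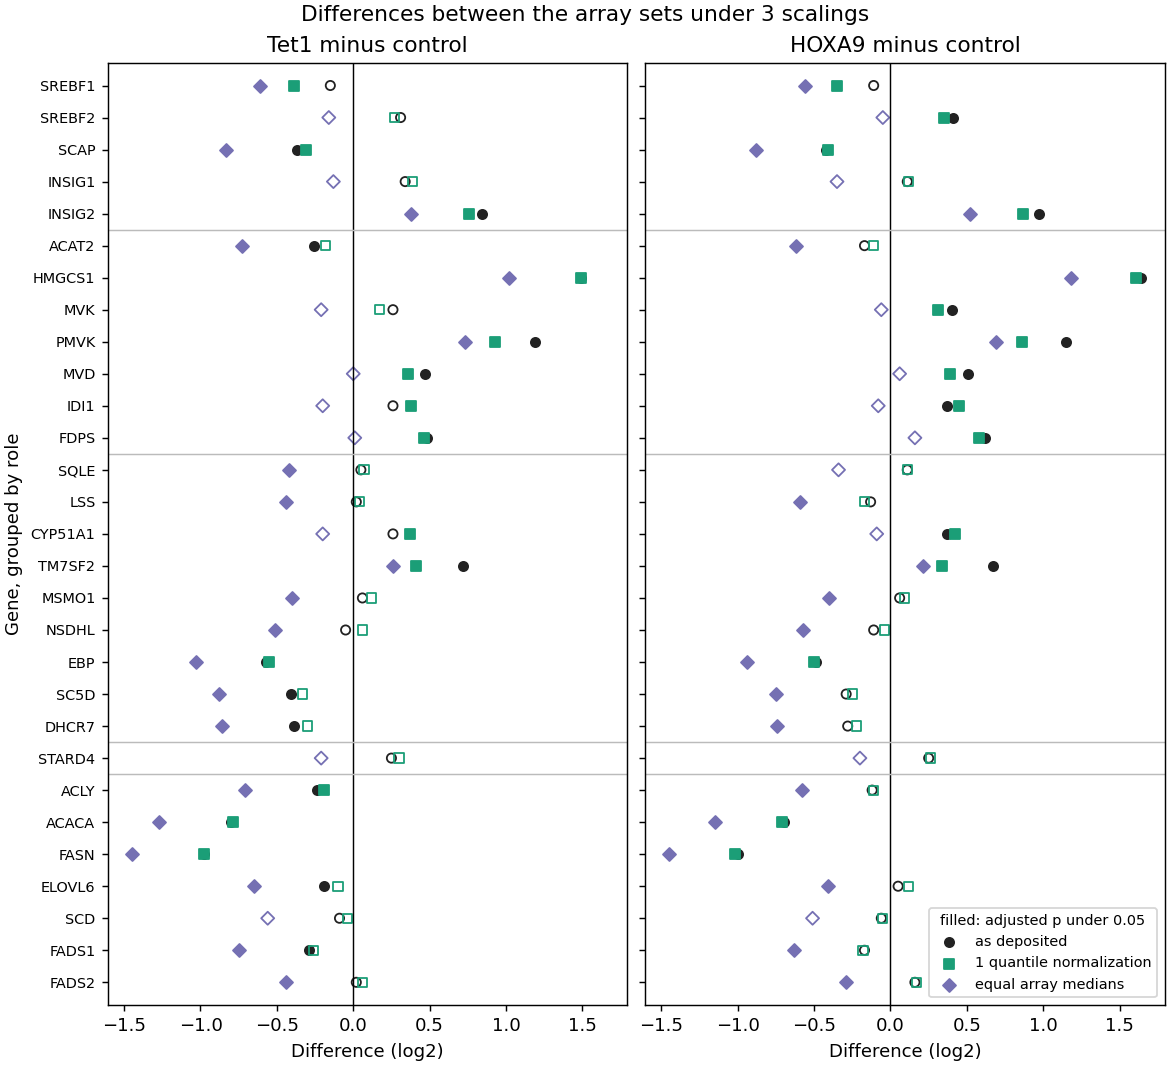
Difference of each gene from control (x axis, log2) in Tet1 (left) and HOXA9 (right) under 3 scalings: as deposited, after 1 quantile normalization, and with equal array medians (filled where the limma adjusted p is under 0.05). HMGCS1, PMVK, INSIG2 and TM7SF2 stay right of 0 and FASN, ACACA, EBP and SCAP left of it in each, and with equal medians every gene shifts left.

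The counts in Tet1 and HOXA9 also moved with single arrays, and a fit that leaves 1 array in Tet1 or HOXA9 has less precision. Without control array 3, 13 members were called higher and 5 lower in Tet1. Without Tet1 array 1 or 2, 4 or 5 members were lower in Tet1, and without HOXA9 array 2, 6 were higher in HOXA9. Markers of adipocytes and hepatocytes, cells that make much lipid, were called higher for 9 of 10 genes in both groups, beside 53.9% and 54% of all genes. Their summed level was 10.62 to 10.64 in Tet1, 10.63 to 10.64 in HOXA9 and 9.64 to 9.74 in control, with 3, 3 and 6 of the 10 group means under 6.26. The lower quartile of the arrays was 5.75 to 5.76 in control and 6.22 to 6.25 in Tet1 and HOXA9, so a fixed level of 6.26 counts fewer dim genes there. Of 9 HEK293 markers, 6 were called higher and 1 lower in Tet1, and 5 and 2 in HOXA9. The part of these marker differences in the results was not tested.

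The 7 lists of neighbouring lipid genes, 89 measured of 99, had 30 called in shHMGA2 (33.7%, against 26.2% of all genes), 12 higher and 18 lower. Over all genes, 13.6% were higher and 12.6% lower, and the counts per list stand beside these shares. The lists' median differences ran from -0.18 for lipid uptake and storage to 0.16 for the isoprenoid and late sterol genes, beside -0.03 over all genes. The clearest were 2 elongases of very long fatty acids. ELOVL2 rose from 5.89 to 8.71, by 2.82 ± 0.13 (SE; adjusted p = 5.6e-08), and ELOVL4 from 5.77 to 7.6, by 1.84 ± 0.09 (SE; adjusted p = 1e-07), both from a control level under 6.26. In the same list of elongation, desaturation and activation, 5 of 17 were higher and 5 lower, ACSL5 (-0.64) and ELOVL1 (-0.46) among the latter. Fatty acid oxidation had 0 of 20 higher and 4 lower, with CPT1A, which brings fatty acids into mitochondria, at -0.77 and the regulator PPARA at -0.57. Lipid uptake and storage had 1 of 14 higher, the HDL receptor SCARB1 (0.31), and 4 lower, with LRP1 (-0.55) and LRP8 (-0.45). Isoprenoid branches and late sterol genes had 3 of 9 higher, with GGPS1 (0.65) and LBR (0.29), and 1 lower, DHDDS (-0.27). With equal array medians 1 of the 9 was higher. Other SREBP targets had 2 of 14 higher, PNPLA3 (0.6) and SLC25A1 (0.28), and 3 lower, with LPIN1 (-0.52) and ACSS2 (-0.43). Among the proteins of SREBP processing and turnover, 1 of 8 was higher, the protease MBTPS2 (0.51), and among those of LXR and sterol export 1 of 7 was lower, CYP27A1 (-0.37). The higher HEK293 markers and CDKN2A in the same arrays stand beside these values, and their part was not tested.

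Between Tet1 and HOXA9, 0 of the 89 genes were called. Against control, 67 were called in each group (75.3%, beside 77.1% and 75.7% of all genes), 30 higher and 37 lower in Tet1 and 31 and 36 in HOXA9. Over all genes, 53.9% were higher and 23.2% lower in Tet1, and 54% and 21.6% in HOXA9, and the counts per list stand beside these shares. With equal array medians the counts became 10 and 60 in Tet1, beside 21.9% and 51.4% of all genes, and 11 and 61 in HOXA9, beside 20.3% and 51.1%. As deposited, list medians ran from -0.47 for SREBP processing and turnover to 0.76 for LXR and sterol export in Tet1, and from -0.37 to 0.71 for the same lists in HOXA9, beside 0.25 and 0.24 over all genes. With quantile normalization the LXR and sterol export medians were 0.23 and 0.16. In fatty acid oxidation 9 of 20 were higher and 8 lower in Tet1, and 10 and 7 in HOXA9. PDK4, a kinase that turns off pyruvate oxidation, was higher by 2.25 and 2.3 and PPARA lower by 1.45 in each, in log2 units. In LXR and sterol export 5 of 7 were higher in both groups, with CH25H (1.2 and 1.17) and the cholesterol exporter ABCA1 (1.09 and 0.83; 0.3, adjusted p = 0.059, in HOXA9 after quantile normalization), and LPCAT3 was lower (-1.47 and -1.31). After quantile normalization 2 of these 7 were higher in HOXA9, beside 29.7% of all genes. In the elongation, desaturation and activation list 2 of 17 were higher and 8 lower in Tet1 and 3 and 8 in HOXA9, with ACSL1 at -1.56 and -1.47. The other SREBP targets had 6 of 14 higher and 4 lower in Tet1 and 6 and 5 in HOXA9, with ACSS2, which makes acetyl-CoA from acetate, at 0.97 and 1.04 and malic enzyme ME1 at -1.45 and -1.4. In lipid uptake and storage 5 of 14 were higher and 5 lower in Tet1 and 4 and 5 in HOXA9, with DGAT2 at 1.23 and 1.04 and SOAT1 at -0.84 and -0.85. SREBP processing and turnover had 3 of 8 higher and 5 lower in both, with MBTPS2 at -1.22 and -1.13, and the isoprenoid and late sterol list had 0 of 9 higher and 6 and 5 lower, with LBR at -1.1 and -0.98. PDK4, CH25H, ACSS2 and DGAT2 were called higher, and PPARA, LPCAT3, ACSL1, ME1, SOAT1, MBTPS2 and LBR lower, under all 3 scalings.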

How the data were processed

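RNA of 4 groups was measured on 1-colour arrays. The authors deposited log2 values of 33297 probe sets in 12 columns, per the submitters' processing notes summarised by RMA (R 2.11). No source used here says whether the arrays were normalized in 1 run. The averaged replicate 3 of Tet1 and of HOXA9 (tolerance 1e-06) was left out, which left 10 arrays. Gene names came from the platform annotation. Probe sets with 1 symbol were used, the brightest per gene (18417 genes), with no filter on dim ones. The 4 groups were fitted with limma 3.58.1 in R 4.3.3 (lmFit, eBayes, two-sided, 6 residual and 5.65 prior degrees of freedom), after the fit was tested on simulated data. The number of arrays limits the precision. Alternatives were other scalings, all 12 columns, a dim filter, another variance model, only the groups compared, the mean of a gene's probe sets, a replicate block and leaving out each array. Members and lists were chosen with earlier results of these data known. Members were described in full if called within an array set, or among the 6 largest called, non-overlapping differences per direction against control. Up to 2 genes per list and direction were named by size. Array medians and lower quartiles differed between the sets, which moves comparisons across them.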

Additional observations from a re-analysis of the deposited data

How the results depend on the processing

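Of 116 differences of members (29 in 4 comparisons), 106 kept their direction and side of the threshold after quantile normalization, 91 with equal array medians, 111 with all 12 columns, 114 with only the groups compared and 105 with a replicate block, and all 116 with the dim filter, the other variance model and the mean of a gene's probe sets. The cause was not tested, except where fewer arrays were used. After quantile normalization SREBF1 in both groups and IDI1 and CYP51A1 in Tet1 gained a call, and FADS2 in shHMGA2 and ACAT2, SC5D, DHCR7, ELOVL6 and FADS1 in Tet1 lost it. Equal medians added 10 calls in an unchanged direction. Members lower in shHMGA2 numbered 1 after quantile normalization and 1 with only the 2 groups. With all 12 columns, 1 member was lower in Tet1 than in HOXA9, 4 genes of the other lipid lists were called between them, and 10 members were higher in Tet1 than in control. Members lower in Tet1 numbered 6 after quantile normalization and 16 with equal array medians, and with equal medians 4 were higher and 15 lower in HOXA9. Equal medians also turned the sign of SQLE (-0.42), LSS (-0.44), MSMO1 (-0.4) and FADS2 (-0.44) in Tet1, and of SREBF2 (-0.05), MVK (-0.06), IDI1 (-0.08), CYP51A1 (-0.09), MSMO1 (-0.4), ELOVL6 (-0.41) and FADS2 (-0.29) in HOXA9, each against control. Leaving out each array in turn gave 1 to 5 members higher and 1 to 3 lower in shHMGA2, 6 to 13 higher and 4 to 10 lower in Tet1, 6 to 12 higher and 4 to 6 lower in HOXA9, and 0 in Tet1 against HOXA9. The lone array left in Tet1 or HOXA9 was assumed to vary like the other groups. Same-numbered control and shHMGA2 arrays correlated at 0.16, 0.14 and 0 over all genes, after group means were removed, and at 0.19, 0.24 and 0.75 over the members. Tet1 and HOXA9 arrays did so at 0.17 and 0.48. Since a pair over all genes was at 0, and not every array correlated best with its own number, the numbers were not taken to pair the arrays. With a replicate block, 12 members were higher and 7 lower in Tet1 than in control (ACAT2, DHCR7 and ELOVL6 lost), 12 higher and 4 lower in HOXA9 (STARD4 and FADS2 gained), and the same 3 higher and 2 lower in shHMGA2. The table has no detection calls, so signal over background is known only through the dim level.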
